A study of Mus musculus with 15 samples.

Results

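Notch signalling passes between touching cells. A ligand of the Jagged or Delta-like families on one cell binds a Notch receptor on its neighbour, an ADAM protease and then the gamma-secretase complex cut the receptor, and the freed intracellular domain enters the nucleus, where it joins the DNA-binding protein RBPJ and a Mastermind coactivator. The HES and HEY genes, which encode basic helix-loop-helix repressors, are the best known genes switched on in this way, and in breast epithelium and breast tumours the pathway is known for its part in progenitor maintenance and in basal-like disease. Described here are 10 genes of this pathway, chosen by symbol: the repressor genes HES5, HES1, HEY1, HES4 and HES6, the receptors NOTCH1, NOTCH2 and NOTCH3, and the ligands JAG1 and DLL1. They are 10 of 56967 genes with 1 unambiguous name in the count tables, and all 10 were among the 19051 genes that passed the filter on low counts. The choice used the measurements: the set was put together because HES5 was higher in all 4 hairpin sets than in the control. The levels and changes of these genes against the control are therefore given as a description, without p-values, and tests are given for comparisons that the rule of choice did not name. These tests are not independent of the choice, since earlier results of these data were known and the same hairpin libraries enter them.

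The cells were labelled MDA-MB-468, an established line from an invasive breast carcinoma, and carried short hairpin RNAs. The 15 libraries fell into 5 groups of 3. The control hairpin group is called NC. 2 groups carried hairpins against SHCBP1, a scaffold protein of dividing cells, and are called shSHCBP1_1 and shSHCBP1_2. 2 groups carried hairpins against TMEM45A, a membrane protein, and are called shTMEM45A set 4 and shTMEM45A set 2 after the digits in the column names. Set 2 was matched to a labelled hairpin by name only. The digit 4 is in no label, so set 4 was taken as the other labelled hairpin, and which hairpin each one is was not settled. The series belongs to work on a breast cancer prognosis model around disulfidptosis, a type of death of stressed cells, and all groups, the control included, were hairpin-carrying cells. Whether a group's 3 libraries came from separate cultures is not labelled, so the p-values rest on library-to-library spread that may be technical only. NC and both shSHCBP1 groups stood in one table and both shTMEM45A groups in the other, so for every comparison of shTMEM45A with NC or with shSHCBP1 the hairpin target and the table cannot be told apart.

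Library totals lay between 13780294 and 16484000 counts. SHCBP1 itself was not lower in the libraries labelled shSHCBP1: it had a mean of 47.1 CPM, the read count scaled by library depth, in shSHCBP1_1 and 44.3 CPM in shSHCBP1_2 beside 44.1 CPM in NC, and the log2 differences of 0.10 and 0.01 did not pass edgeR's test (adjusted p = 0.412 and 0.962). TMEM45A was at 17.8 CPM in shTMEM45A set 4 and 19.4 CPM in set 2 beside 26.6 CPM in NC, lower by edgeR's test in both (adjusted p = 8.8e-06 and 0.000181). The label of the line was checked against 15 genes of basal-like breast cells: KRT5, KRT6A, KRT6B, KRT16 and TP63 had 0 counts in all 15 libraries, where a count of 0 allows up to between 0.182 and 0.218 CPM in a library for counting error, while EGFR, whose high level is a hallmark of this line, was at 16.3 CPM in NC. The neurofilament genes NEFL and NEFM were at 176 and 255 CPM in NC. The labels' organism field says mouse and the submitters' processing notes name a mouse genome build, but the tables carry human gene symbols, so the genome that the reads were counted on is not settled. These cells are therefore called by their label without a claim about their type. Since these are bulk samples, fewer cells of a type and less RNA per cell cannot be told apart.

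HES5, a repressor best known for holding neural progenitors undifferentiated, was at low level in every group and lowest in NC. It had 0.555, 1.33 and 0.276 CPM in the NC libraries, 3.09, 2.19 and 2.70 CPM in shSHCBP1_1, 3.41, 2.51 and 3.13 CPM in shSHCBP1_2, 10.4, 8.21 and 9.77 CPM in shTMEM45A set 4 and 7.92, 5.28 and 5.96 CPM in shTMEM45A set 2. No library of any hairpin set overlapped the NC libraries, and no shTMEM45A library overlapped the shSHCBP1 libraries. The reads behind the NC values were few, with 8, 19 and 4 counts, whereas the hairpin sets had from 34 to 152 counts a library. The log2 change against NC was 1.88 ± 0.34 (SE) in shSHCBP1_1, 2.06 ± 0.34 in shSHCBP1_2, 3.71 ± 0.31 in shTMEM45A set 4 and 3.14 ± 0.32 in set 2. NC replicate 2 held most of the NC counts, and without it these changes were 2.66, 2.84, 4.48 and 3.90. In order of level the groups ran NC, shSHCBP1_1, shSHCBP1_2, shTMEM45A set 2 and shTMEM45A set 4. The 2 shSHCBP1 sets overlapped and missed the threshold of edgeR's test (log2 difference 0.18 ± 0.27, adjusted p = 0.897), and the shTMEM45A sets did not overlap but missed the threshold (set 2 minus set 4, -0.57 ± 0.23, adjusted p = 0.151).

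HES1, the most widely used readout of Notch signalling, and HEY1, which is also a direct Notch target in many tissues, ran in the same order of targets at smaller steps. HES1 had 40.7, 46.6 and 42.2 CPM in NC, 54.6, 59.8 and 60.8 CPM in shSHCBP1_1, 70.6, 62.9 and 64.3 CPM in shSHCBP1_2, 89.1, 91.9 and 82.8 CPM in shTMEM45A set 4 and 77.4, 94.0 and 85.3 CPM in set 2. Every hairpin library was above every NC library, and the shTMEM45A sets overlapped each other. The HES1 log2 changes against NC were 0.43 ± 0.08 (SE), 0.61 ± 0.08, 1.03 ± 0.08 and 0.99 ± 0.08 in that order. HEY1 had 132.1, 132.4 and 136 CPM in NC, 151, 157 and 157 CPM in shSHCBP1_1, 187, 182 and 185 CPM in shSHCBP1_2, 324, 334 and 321 CPM in shTMEM45A set 4 and 275, 297 and 278 CPM in set 2. None of the 5 groups overlapped another for HEY1. Its log2 changes against NC were 0.21 ± 0.05 (SE), 0.47 ± 0.05, 1.29 ± 0.05 and 1.09 ± 0.05.

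HES4 departed from that order, and HES6 overlapped NC in shSHCBP1_1. HES4, a repressor with no counterpart in the mouse, was at 266 ± 25.9 CPM (SD, n = 3) in NC, 209 CPM in shSHCBP1_1, 214 CPM in shSHCBP1_2, 411 CPM in shTMEM45A set 4 and 370 CPM in set 2. Its NC libraries had 247, 256 and 296 CPM, all above the shSHCBP1 libraries, which lay between 205 and 218 CPM, and all below the shTMEM45A libraries, which lay between 309 and 430 CPM. HES4 therefore stood below NC in the libraries labelled shSHCBP1, with log2 changes of -0.35 ± 0.07 and -0.32 ± 0.07 (SE), and above it in shTMEM45A, with 0.63 ± 0.07 and 0.47 ± 0.07. HES6, which in mouse and frog is known to oppose HES1 and to favour neuronal differentiation, was at 66.6 CPM in NC, 67.7 CPM in shSHCBP1_1, 77.2 CPM in shSHCBP1_2, 109 CPM in shTMEM45A set 4 and 106 CPM in set 2. The shSHCBP1_1 libraries overlapped NC for HES6, and its log2 change there, 0.02 ± 0.08 with the trimmed-mean (TMM) scaling used throughout, became -0.04 with the median-ratio (RLE) scaling.

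**Figure D1:**
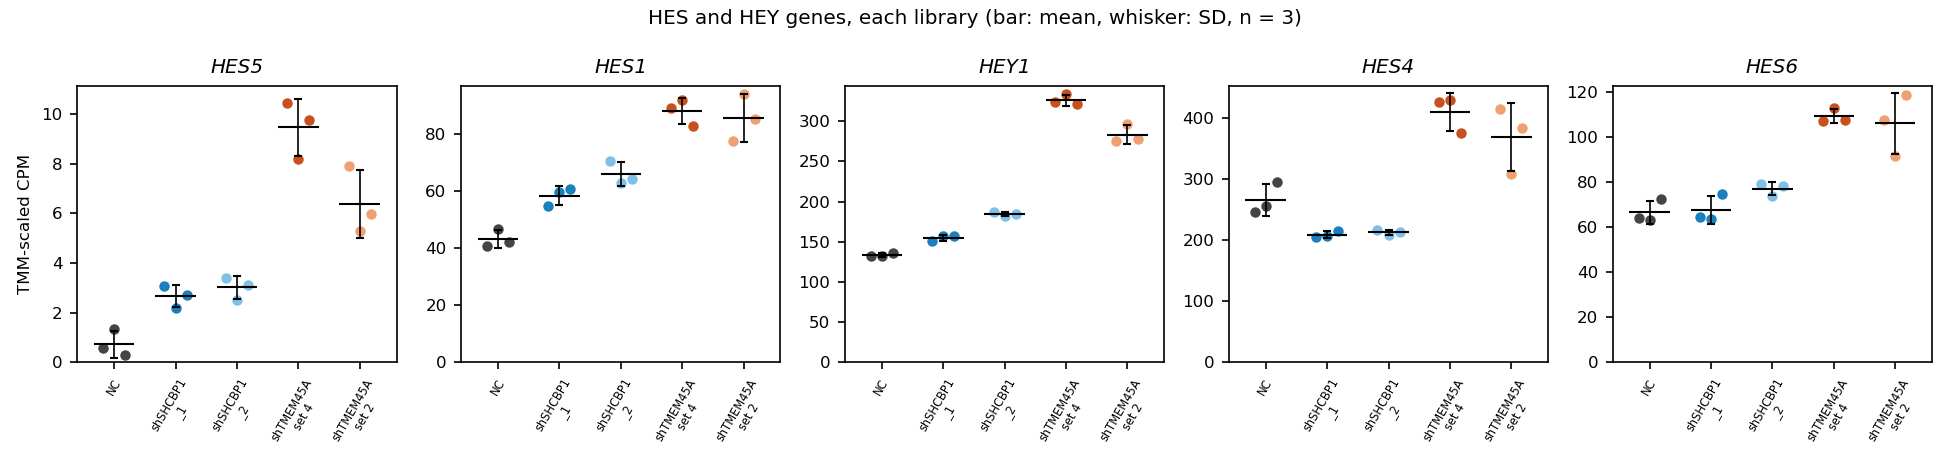
Level of the 5 repressor genes in each of the 15 libraries, in TMM-scaled CPM on axes that start at 0, with 1 point a library, a bar at the mean and a whisker for the SD of 3 libraries. HES5, HES1 and HEY1 stood above NC in every hairpin library, whereas HES4 stood below NC in the shSHCBP1 libraries and above it in the shTMEM45A libraries.

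The receptors stood lower in shTMEM45A. NOTCH1 had 52.6, 49.2 and 49.4 CPM in NC, 48.1, 50.03 and 46.2 CPM in shSHCBP1_1, 56.4, 53.9 and 60.6 CPM in shSHCBP1_2, 30.5, 24.9 and 26.8 CPM in shTMEM45A set 4 and 28.4, 23.6 and 25.5 CPM in set 2. The shTMEM45A libraries lay below all others, shSHCBP1_1 overlapped NC, and shSHCBP1_2 lay just above NC. The NOTCH1 log2 changes were -0.07 ± 0.08 (SE), 0.18 ± 0.08, -0.88 ± 0.08 and -0.96 ± 0.08. NOTCH2 was at 118 CPM in NC, 98.7 and 97.8 CPM in the shSHCBP1 sets and 54.3 and 52.2 CPM in shTMEM45A sets 4 and 2, with no library of a hairpin set inside the NC range. NOTCH2 shares long stretches with its partial copies, the NOTCH2NL genes, of which only NOTCH2NLA had a row under the names searched, so its counts are uncertain where the counting split reads between them. NOTCH3, a receptor prominent in smooth muscle and in luminal progenitors of the breast, was at 83.8 CPM in NC, 78.2 and 71.4 CPM in the shSHCBP1 sets and 36.7 and 34.0 CPM in the shTMEM45A sets. For NOTCH3 the shSHCBP1_1 libraries overlapped NC and those of the other 3 sets lay below it.

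JAG1 had the lowest level relative to NC of the 10 genes in both shTMEM45A sets. This ligand, which is known for signalling to NOTCH1 to NOTCH3 in breast tumours, had 20.96, 18.1 and 19.4 CPM in NC, 14.6, 15.5 and 17.2 CPM in shSHCBP1_1, 14.9, 15.6 and 15.7 CPM in shSHCBP1_2, 4.80, 4.40 and 2.37 CPM in shTMEM45A set 4 and 2.98, 3.45 and 3.42 CPM in set 2. All hairpin libraries lay below NC, and the shTMEM45A libraries lay far below those of shSHCBP1. The JAG1 log2 changes were -0.31 ± 0.13 and -0.34 ± 0.14 (SE) in the shSHCBP1 sets and -2.32 ± 0.16 and -2.56 ± 0.17 in shTMEM45A sets 4 and 2, a level 0.20 and 0.169 times that of NC. DLL1, a Delta-like ligand that can also block receptors in its own cell, had 45.9, 46.7 and 49.4 CPM in NC, between 42.2 and 49.0 CPM in the shSHCBP1 libraries, and 19.9, 21.8 and 17.9 CPM in shTMEM45A set 4 and 22.2, 16.5 and 20.2 CPM in set 2. The shSHCBP1 libraries overlapped NC and the shTMEM45A libraries did not, with DLL1 log2 changes of -0.06 ± 0.08 (SE), 0.02 ± 0.08, -1.25 ± 0.09 and -1.27 ± 0.09. The sign of the small shSHCBP1_1 values of NOTCH1, NOTCH3 and DLL1 depended on the scaling: with scaling to library totals they were 0.08, 0.04 and 0.09.

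**Figure D2:**
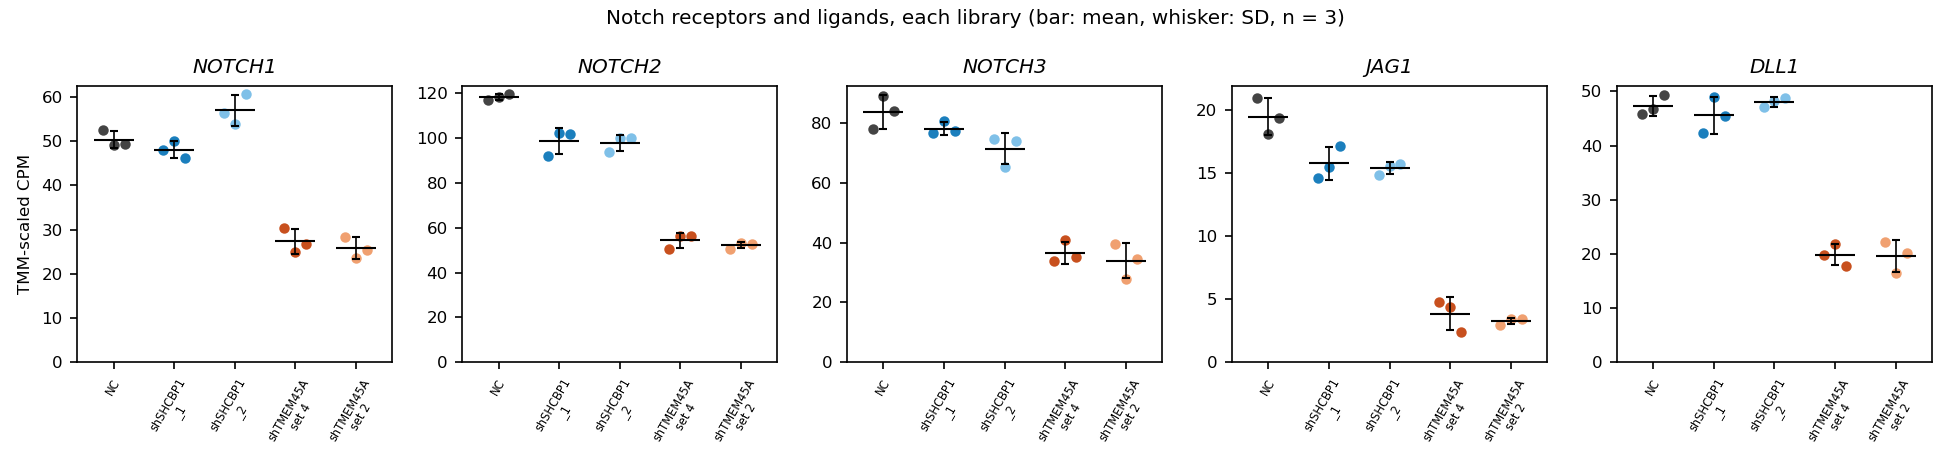
Level of the 3 receptors and 2 ligands in each of the 15 libraries, drawn as in the plot of the repressor genes. The shTMEM45A libraries lie below all NC and shSHCBP1 libraries for each of the 5 genes, with JAG1 at 3.85 and 3.28 CPM beside 19.5 CPM in NC. Of all genes, 59% had no overlap between the shTMEM45A and shSHCBP1 libraries, in either direction. Against NC, 74.4% and 75.9% of all genes were called by edgeR's test in shTMEM45A sets 4 and 2.

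In the counts of called genes the background has to be read first, because most genes differed between shTMEM45A and NC. Against NC, edgeR's test with Benjamini-Hochberg adjustment over all 19051 genes called 19.9% of all genes in shSHCBP1_1, 31.1% in shSHCBP1_2, 74.4% in shTMEM45A set 4 and 75.9% in shTMEM45A set 2 at an adjusted p under 0.05. Of the 10 Notch genes, 5, 7, 10 and 10 lay past that threshold. In the shTMEM45A sets these were the 5 repressor genes, all higher, and the 5 receptors and ligands, all lower, where 35.6% of all genes were called higher and 38.9% lower in set 4, and 36.1% and 39.8% in set 2. In shSHCBP1_1 they were HES5, HES1 and HEY1 above NC and HES4 and NOTCH2 below it, where 9.34% of all genes were called higher and 10.5% lower. shSHCBP1_2 added HES6 above and NOTCH3 below, where those shares were 15.6% and 15.4%. Since these comparisons chose the set, nothing is read from these counts or from the separations from NC given above. The share of all genes with such a separation from NC is not given here. The split of called genes into higher and lower in the shSHCBP1 sets turned on the scaling: 1779 higher and 2008 lower in shSHCBP1_1 became 1271 and 3091 with median-ratio scaling and 4080 and 658 with total-count scaling, and for shSHCBP1_2 the 2980 higher and 2941 lower became 2222 and 4193, and 5552 and 1243. Total-count scaling moved the median of all genes by 0.14 and 0.17 (log2) in the shSHCBP1 sets and by -0.19 in each shTMEM45A set. Under those scalings HES5, HES1 and HEY1 stayed above NC and HES4, NOTCH2 and JAG1 below it in both shSHCBP1 sets, and the 10 genes kept their direction in both shTMEM45A sets.

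**Figure D3:**
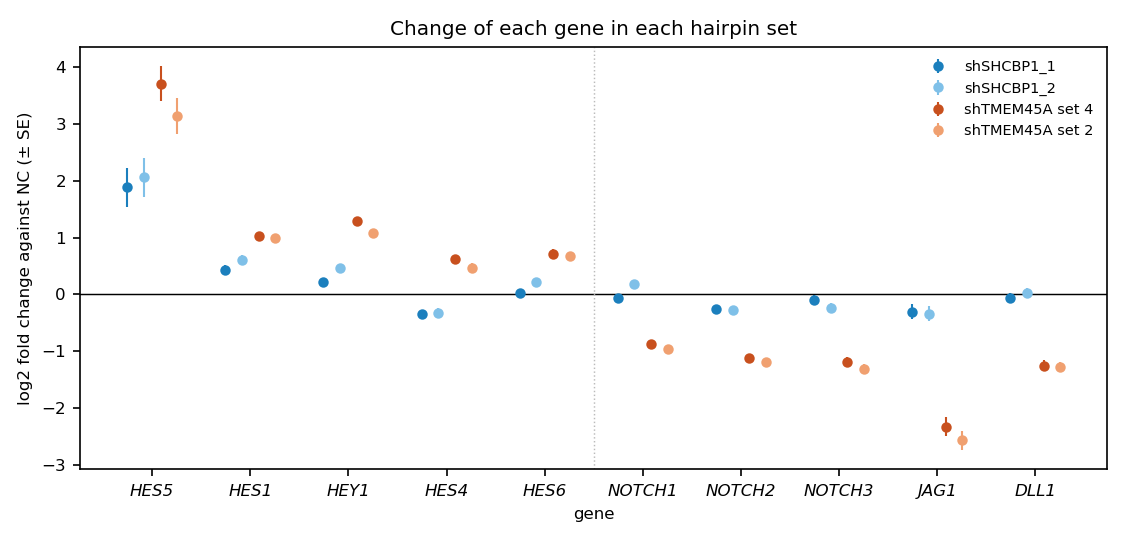
Log2 fold change against NC, with its SE, of each of the 10 genes in the 4 hairpin sets. In shTMEM45A the 5 repressor genes lie above 0 and the 5 receptors and ligands below 0, from 3.71 for HES5 to -2.56 for JAG1, and in shSHCBP1 all but HES5 lie within 1 unit of 0.

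Long transcripts were lower in shTMEM45A across the whole table, and the receptors and JAG1 are long, while DLL1 is of middle length. No human transcript lengths were used, so the longest coding transcript of the mouse gene of the same symbol stood in for 12716 genes, 9 of the 10 Notch genes among them. Their lengths run from 1273 bases for HES5, 1335 for HES6, 1468 for HES1 and 2423 for HEY1 to 3581 for DLL1, 5612 for JAG1, 8016 for NOTCH3, 9488 for NOTCH1 and 10500 for NOTCH2, and HES4 has no value. Across genes, which are not independent replicates, the log2 change ran against length with a Spearman's rho of -0.49 in shTMEM45A set 4 and -0.47 in set 2, beside -0.07 and -0.02 in shSHCBP1_1 and shSHCBP1_2. The median log2 change ran from 0.83 in the shortest 2544 genes to -0.64 in the longest 2543 in set 4, and from 0.84 to -0.67 in set 2.

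The 10 genes were then read against the running median of genes of like length. HES5 remained 2.85 and 2.27 (log2) above genes of its length in sets 4 and 2, HEY1 1.18 and 0.99 above, and HES1 0.40 and 0.36 above. JAG1 remained at -1.78 and -1.99 and DLL1 at -1.08 and -1.10. NOTCH3 was at -0.51 and -0.57, NOTCH2 at -0.32 and -0.33, and NOTCH1 at -0.09 and -0.14. HES6 turned from 0.72 and 0.67 to -0.07 and -0.12. The receptors kept less of their difference from NC than the ligands did, and no test was made of these differences from the trend. The part that length has in the shTMEM45A values was not tested further.

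**Figure D4:**
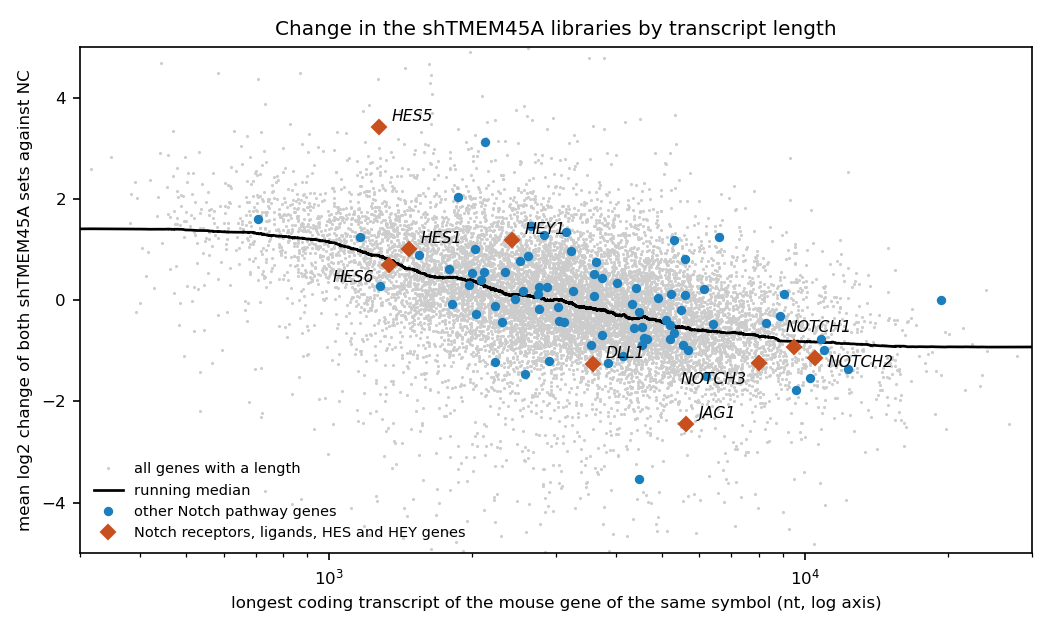
Mean log2 change of both shTMEM45A sets against NC (vertical axis, a few genes beyond the drawn range not shown) by the length of the longest coding transcript of the mouse gene of the same symbol (nt, log axis), for all genes with a length (grey), other Notch pathway genes (blue) and 9 of the 10 genes described (orange), with the running median over 1000 genes as a line. HES5 and HEY1 lie above the line and JAG1 and DLL1 below it, while HES6 and NOTCH1 lie close to it.

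The comparisons that the rule of choice did not name set hairpin against hairpin. Between the hairpins against SHCBP1, 0.835% of all genes were called, 0.499% as higher in shSHCBP1_2, and HEY1 was the member called: it was higher in shSHCBP1_2 than in shSHCBP1_1 by 0.25 ± 0.05 (log2, SE; adjusted p = 0.00435), with 3 of 3 libraries above. Without shSHCBP1_1 replicate 1 the HEY1 difference was 0.23 and missed the threshold (adjusted p = 0.0646). NOTCH1 was also higher in 3 of 3 libraries of shSHCBP1_2, by 0.24 ± 0.08, and missed it (adjusted p = 0.148). Between the hairpins against TMEM45A, 5.27% of all genes were called, 3.32% as lower in set 2, and HEY1 was again the member called: it was lower in set 2 than in set 4 by -0.20 ± 0.05 (adjusted p = 0.00588), with 3 of 3 libraries below. Fitted on those 2 groups alone, the difference was -0.20 with an adjusted p of 0.159. Fitted on the shSHCBP1 groups alone, NOTCH1 (0.24, adjusted p = 0.00255), HES6 (0.19, 0.0122) and HES1 (0.18, 0.0267) were also called higher in shSHCBP1_2. In the fit over all 15 libraries the other 9 genes missed the threshold in both comparisons, which does not show that the hairpins act alike.

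Set against each other, the average of the shTMEM45A sets and that of the shSHCBP1 sets differed by edgeR's test for all 10 genes, 5 higher and 5 lower in shTMEM45A, where 79.3% of all genes were called, 35.2% higher and 44.1% lower. HES5 was higher in shTMEM45A by 1.45 ± 0.17 (log2, SE; adjusted p = 9.39e-09), HES4 by 0.88 ± 0.05 (adjusted p = 6.66e-16), HEY1 by 0.85 ± 0.03 (adjusted p = 9.35e-21), HES6 by 0.58 ± 0.05 and HES1 by 0.49 ± 0.05. JAG1 differed by -2.12 ± 0.12 (adjusted p = 1.42e-16), DLL1 by -1.24 ± 0.07, NOTCH3 by -1.08 ± 0.06, NOTCH1 by -0.98 ± 0.06 and NOTCH2 by -0.88 ± 0.04. Every shTMEM45A library lay beyond every shSHCBP1 library for all 10 genes, as for 59% of all genes. Relative to genes of like length, a step added for this comparison after seeing the data, the difference was 0.65 for HES5, 0.82 for HEY1, -1.56 for JAG1 and -1.02 for DLL1, while HES1 and HES6 turned to -0.09 and -0.14. NOTCH1 was then at -0.18, NOTCH2 at -0.08 and NOTCH3 at -0.35. This comparison crosses the tables, and the hairpins' target cannot be told apart from the table. It is also built from the hairpin levels that the choice set against NC, so its p-values are not independent of the choice.

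The rest of the pathway was followed with 92 further genes listed by role, of which 81 were tested. In both shSHCBP1 sets 12 of the 81 rose and 9 fell against NC, which is 14.8% and 11.1% beside 8.3% and 9.45% of all genes, and the median of their mean log2 change was 0.02 beside 0.01 for all genes. In both shTMEM45A sets 23 rose and 30 fell, which is 28.4% and 37% beside 32.6% and 36.2% of all genes, with medians of 0 and -0.05. By role, the share that changed in both shTMEM45A sets is set beside 68.9% of all genes. It was 66.7% for receptor cleavage, 64.3% for trafficking and turnover, 66.7% for nuclear activators, 68.8% for corepressors and 61.5% for other targets. Smaller groups lay further from it, with 100% of 4 ID genes, 83.3% of 6 receptors and ligands and 33.3% of 6 glycosylation enzymes. Of 3 proneural genes 66.7% changed, and NOTCH2NLA was not called in both sets. The values of single genes below come from edgeR's test against NC, adjusted over all genes.

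Of the receptor cleavage genes, ADAM17, one of the surface proteases that can cut Notch, fell from 55.2 CPM in NC to 4.98 and 4.5 CPM in shTMEM45A sets 4 and 2, a log2 change of -3.46 ± 0.12 and -3.61 ± 0.12 (SE; adjusted p = 3.8e-21 and 1.61e-21). It fell in the shSHCBP1 sets by less, with -0.45 ± 0.09 and -0.51 ± 0.09 (adjusted p = 0.000667 and 7.12e-05). ADAM10, the main protease of ligand-dependent cleavage, fell in shTMEM45A by 0.89 and 0.62 on the log2 scale and was at -0.54 and -0.28 relative to length. Of the gamma-secretase subunits, PSEN2, a catalytic subunit, rose in all 4 sets, from 11.3 CPM in NC to 19.5, 21.6, 21.1 and 24.6 CPM, while nicastrin (NCSTN) fell from 98.3 CPM to 84.1, 75.1, 45.0 and 40.3 CPM. PSENEN, the smallest subunit, rose in shTMEM45A, with log2 changes of 1.49 and 1.74, which were 0.20 and 0.38 above genes of its length, and APH1A rose by 0.34 and 0.20, the second a call lost with total-count scaling. Relative to length ADAM17 stayed at -3.10 and -3.26 in shTMEM45A and NCSTN at -1.14 and -1.26, and PSEN2 was at 0.56 and 0.76. Of 9 genes of this group, 1 rose and 2 fell in both shSHCBP1 sets and 3 rose and 3 fell in both shTMEM45A sets. The shSHCBP1_1 call of NCSTN was lost in 5 of 15 fits that each left out 1 library, with adjusted p up to 0.188, and with total-count scaling.

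Among 6 other tested receptors and ligands, 2 rose and 3 fell in both shTMEM45A sets. DLL3, a ligand that blocks rather than activates Notch in its own cell, rose from 15.2 CPM to 27.2 and 28.1 CPM (adjusted p = 4.18e-07 and 1.54e-07), and DLK2, a non-canonical ligand, rose by 0.52 and 0.70 (log2), which was 0.06 and 0.27 relative to genes of its length. DLL4, a ligand best known in blood vessels, fell from 7.20 CPM to 4.44 and 4.56 CPM. JAG2 fell from 152 CPM to 118 and 115 CPM, with log2 changes of -0.37 and -0.40 that turned to 0.08 and 0.06 relative to genes of its length. CNTN1, a contactin described as a Notch ligand in rodent oligodendrocyte development, fell in all 4 sets, with log2 changes of -0.41, -0.47, -0.90 and -1.07, the last pair being -0.36 and -0.49 relative to length. In shSHCBP1_1 the CNTN1 call was lost in 4 of 15 leave-one-out fits, with adjusted p up to 0.0992, and with total-count scaling it was lost in both shSHCBP1 sets. The sugar-adding enzymes MFNG and RFNG, which tune how receptors respond to each ligand family, rose in shTMEM45A: RFNG by 0.61 and 0.52 on the log2 scale from 66.0 CPM in NC, or 0.34 and 0.26 relative to length, and MFNG from 0.324 CPM to 1.14 and 1.60 CPM. Without NC replicate 3 the MFNG log2 changes were 2.65 and 3.14 in place of 1.79 and 2.28. None of the 6 enzymes of that group passed in both shSHCBP1 sets.

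Among 14 genes of receptor trafficking and turnover, 3 rose and 1 fell in both shSHCBP1 sets, and 4 rose and 5 fell in both shTMEM45A sets. Of 5 tested Deltex genes, which encode ubiquitin ligases, DTX3L and DTX2 rose in all 4 sets: DTX3L from 4.03 CPM in NC to 6.61, 7.82, 8.33 and 10.2 CPM, and DTX2 from 7.23 CPM to 10.3, 13.3, 17.5 and 22.6 CPM. The call of DTX2 in shSHCBP1_1 was lost without NC replicate 3 (log2 change 0.31, adjusted p = 0.25), without shSHCBP1_1 replicate 1 (0.49, 0.0944) and without shSHCBP1_1 replicate 3 (0.45, 0.123). It was also lost with median-ratio scaling (0.44, 0.0521). MIB1, the ubiquitin ligase that makes ligands active by driving their uptake, fell from 161 CPM to 129, 142, 59.4 and 51.9 CPM, and its relative MIB2 rose in shTMEM45A from 39.0 CPM to 63.5 and 68.8 CPM. The shSHCBP1_2 call of MIB1, at -0.18, was lost in 3 of 15 leave-one-out fits, with adjusted p up to 0.128, and with total-count scaling. NEURL1B, another ligand-directed ubiquitin ligase, fell in shTMEM45A by 1.24 and 1.75 on the log2 scale, and NUMB, an inhibitor that steers Notch to degradation, fell by 0.86 and 0.90. Relative to length, MIB1 was at -0.63 and -0.79 in shTMEM45A, NEURL1B at -0.65 and -1.11 and NUMB at -0.70 and -0.75. NEURL1 passed in both shSHCBP1 sets at 0.36 and 0.33 (adjusted p = 0.0434 and 0.0497), and these calls were lost in 6 and 10 of 15 leave-one-out fits. Both were also lost with median-ratio scaling, with DESeq2 and with no filter.

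At the nuclear step, of 9 nuclear activators none rose and 6 fell in both shTMEM45A sets, beside 1 that rose and 2 that fell in both shSHCBP1 sets. EP300, the acetyltransferase recruited by the Notch complex, fell from 60.1 CPM to 18 and 17 CPM (log2 change -1.74 ± 0.10 and -1.82 ± 0.10, SE; adjusted p = 3.97e-16 and 1.27e-16), and relative to genes of its length it was at -0.95 and -1.00. Its relative CREBBP fell by 0.92 and 0.62 on the log2 scale, values that became -0.11 and 0.23 relative to length. MAML1, a Mastermind coactivator, rose in shSHCBP1 from 59.8 CPM to 72.6 and 81.5 CPM and fell in shTMEM45A to 34.8 and 30.0 CPM, where it was at -0.26 and -0.43 relative to length. Without NC replicate 1 the shSHCBP1_1 value of MAML1 was 0.21 (adjusted p = 0.0685). RBPJ, the DNA-binding partner of the receptors, fell in both shSHCBP1 sets, from 138 CPM to 108 and 99.3 CPM (log2 change -0.36 ± 0.05 and -0.48 ± 0.05; adjusted p = 9.65e-06 and 3.6e-08), and in both shTMEM45A sets to 121 and 119 CPM, where relative to length it was at 0.34 and 0.35. KAT2A, another acetyltransferase of the complex, fell in the shSHCBP1 sets from 173 CPM to 146 and 141 CPM, calls that were lost with total-count scaling.

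Of 16 corepressors that act with RBPJ or HES proteins, 1 rose and 3 fell in both shSHCBP1 sets and 3 rose and 8 fell in both shTMEM45A sets. CIR1, which links RBPJ to histone deacetylases, rose in shTMEM45A from 22.6 CPM to 52.2 and 58.6 CPM (adjusted p = 1.63e-13 and 5.4e-15). It also passed in the shSHCBP1 sets, at 0.29 and 0.30 (log2), calls that were lost with median-ratio scaling and in 4 and 3 of 15 leave-one-out fits. SPEN, the large RBPJ corepressor, fell in shTMEM45A from 183 CPM to 73.7 and 69.2 CPM, and to 155 and 154 CPM in shSHCBP1, where the calls were lost with total-count scaling. TLE3, a Groucho-type partner of HES proteins, fell in all 4 sets, from 140 CPM to 112, 104, 104 and 94.5 CPM, and in shTMEM45A it was at 0.07 and -0.05 relative to genes of its length. KDM5A, a histone demethylase, fell by 0.93 and 1.02 on the log2 scale in shTMEM45A and was then at -0.12 and -0.17 relative to length. SPEN was at -0.47 and -0.52 by that measure. TLE4 fell in shTMEM45A by 0.85 and 0.91, which was -0.51 and -0.56 relative to length, and the corepressors CTBP1 and HDAC2 rose, by 0.42 and 0.60 and by 0.14 and 0.23. HDAC2 turned to -0.05 in set 4 with total-count scaling, and its set 4 call was lost in 3 of 15 leave-one-out fits and with median-ratio scaling. Its call in shTMEM45A set 2 was lost with total-count scaling. NCOR1 passed in the shSHCBP1 sets at -0.24 and -0.25, calls that were lost with total-count scaling and in 4 and 2 of 15 leave-one-out fits.

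Other known Notch targets did not move as one with HES5, HES1 and HEY1. Of 13 tested, 4 rose and none fell in both shSHCBP1 sets, and 5 rose and 3 fell in both shTMEM45A sets. NRARP, a Notch target that feeds back to destabilise the receptor complex, fell in shTMEM45A from 96.9 CPM in NC to 37.3 and 33.6 CPM (log2 change -1.38 ± 0.07 and -1.53 ± 0.07, SE; adjusted p = 2.47e-17 and 2e-18), and at -1.49 and -1.63 it was no nearer to 0 relative to genes of its length. HEYL, a close relative of HEY1, fell from 19.1 CPM to 12.3 and 14.1 CPM, and SOX9 from 13.9 CPM to 6.30 and 6.66 CPM. Relative to length HEYL was at -0.29 and -0.09 and SOX9 at -0.85 and -0.76. HES2 rose from 2.06 CPM to 3.57 and 3.49 CPM, a pair of calls lost without NC replicate 2 (adjusted p = 0.103 and 0.131) and each also without 1 library of its own set. Both HES2 calls were also lost with total-count scaling. GATA3, a luminal transcription factor, rose from 13.3 CPM to 25.1 and 27.5 CPM. MYC rose in all 4 sets, with log2 changes of 0.27, 0.48, 0.81 and 0.33, and CCND1, the gene of cyclin D1, from 29.0 CPM to 43.7, 51.8, 39.5 and 38.8 CPM. BHLHE41 passed in both shSHCBP1 sets at 0.39 and 0.65, and in shSHCBP1_1 the call was lost in 8 of 15 leave-one-out fits. It was also lost there with median-ratio scaling, with DESeq2 and with no filter.

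The ID genes encode helix-loop-helix proteins that block other factors of the family. ID1 rose in shTMEM45A from 62.1 CPM to 156 and 139 CPM (adjusted p = 1.38e-17 and 3.48e-16) and was 0.36 and 0.18 above genes of its length, while ID4 fell from 146 CPM to 68.9 and 54.8 CPM. ID2 passed in all 4 sets at 0.20, 0.30, 0.48 and 0.13 (log2), and the set 2 value, a call lost in 3 of 15 leave-one-out fits, turned to -0.06 with total-count scaling. Without shSHCBP1_1 replicate 3 the shSHCBP1_1 value of ID2 was 0.16 (adjusted p = 0.0572), and that call was also lost with median-ratio scaling. ID3 passed in shTMEM45A at 0.44 and 0.14, the second a call lost in 13 of 15 leave-one-out fits, and was at -0.41 and -0.71 relative to genes of its length. ATOH1, a proneural gene that HES proteins are known to repress, had 2 counts over the NC libraries and 26, 26, 12 and 31 counts over those of shSHCBP1_1, shSHCBP1_2, shTMEM45A set 4 and set 2. The ratios of its scaled counts to NC were 11.3, 11.9, 6.27 and 16, with exact 95% intervals for counting error only of 2.83 to 98.4, 2.98 to 104, 1.40 to 57.7 and 4.08 to 138. These intervals leave out the spread between libraries: the lowest shSHCBP1_2 library, at 0.0639 CPM, lay within the NC range, which reached 0.0694 CPM. The calls of ATOH1 were lost in 4, 2 and 9 of 15 leave-one-out fits for shSHCBP1_1, shSHCBP1_2 and shTMEM45A set 4. The set 4 call was also lost with median-ratio scaling, total-count scaling and DESeq2. NEUROG2, another proneural gene, fell in shTMEM45A from 2.48 CPM to 0.959 and 1.15 CPM.

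**Figure D5:**
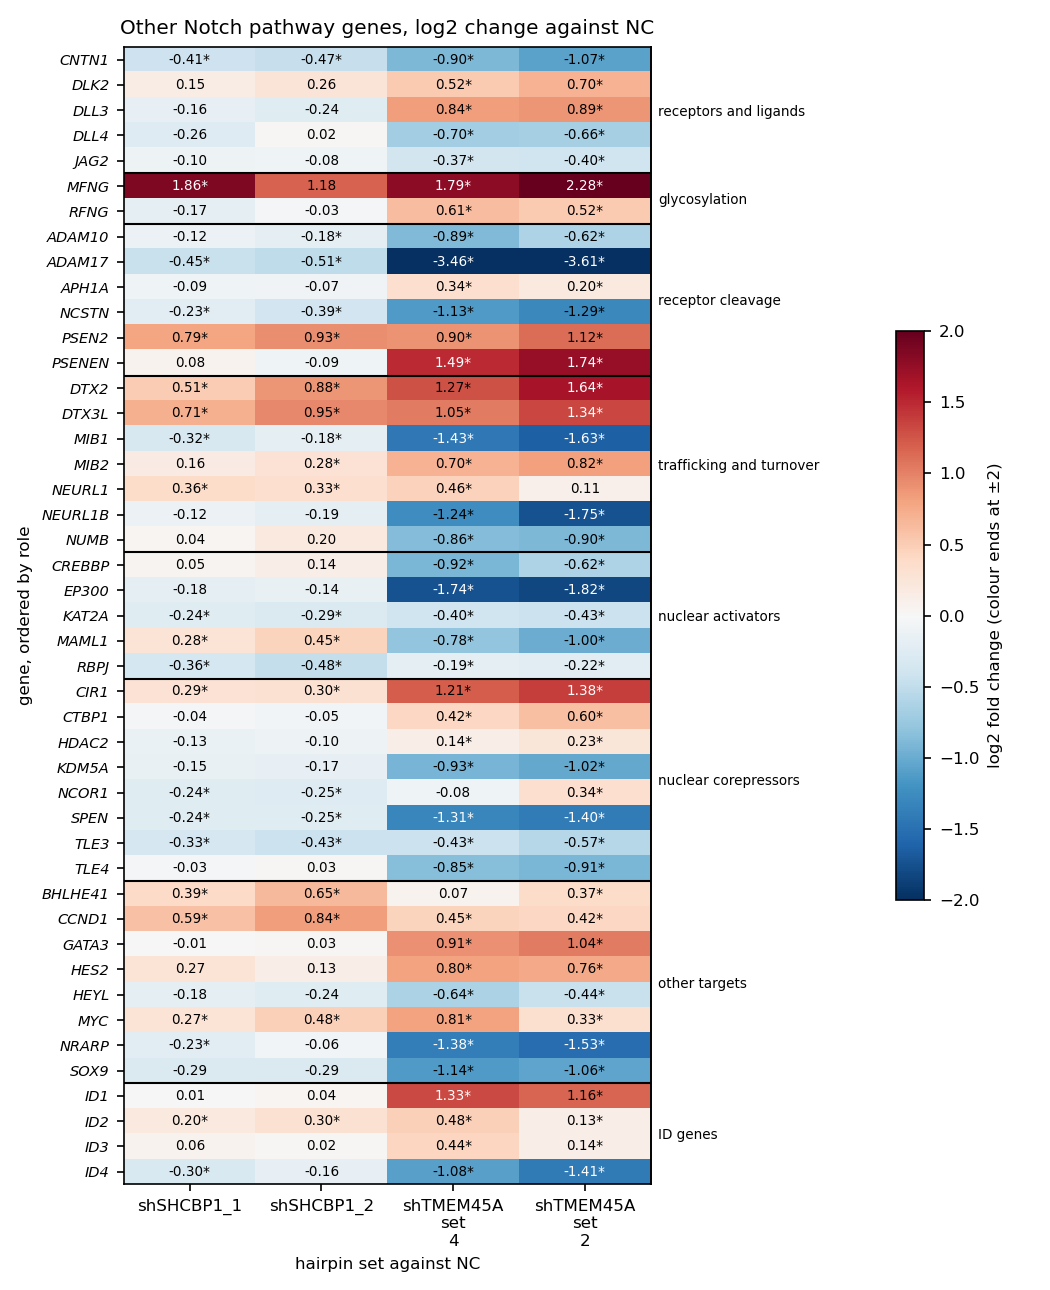
Log2 change against NC of the other Notch pathway genes named by rule, the proneural genes apart, in rows ordered by role, for the 4 hairpin sets, with red for higher and blue for lower than NC and a star where edgeR's adjusted p was under 0.05. ADAM17 at -3.46 and -3.61 is the lowest value, NRARP is low in both shTMEM45A sets, and DTX2, DTX3L and PSEN2 are higher in all 4 sets.

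Between the hairpins of a target, 1 of the 81 genes was called for SHCBP1 and 11 for TMEM45A. These are 1.23% and 13.6%, beside 0.835% and 5.27% of all genes. MYC was higher in shSHCBP1_2 than in shSHCBP1_1 by 0.21 ± 0.05 (log2, SE; adjusted p = 0.0261), a call lost without any 1 of the 6 libraries compared (adjusted p up to 0.244). MYC was lower in shTMEM45A set 2 than in set 4 by -0.48 ± 0.05 (adjusted p = 7.88e-08), as were BHLHE40, a hypoxia- and clock-linked repressor, by -0.62 ± 0.06 (adjusted p = 7.1e-08) and NEURL1B by -0.50 ± 0.10. NCOR1 was higher in set 2 by 0.42 ± 0.08 (adjusted p = 0.000861), CREBBP by 0.30 ± 0.07 (adjusted p = 0.0135) and RBPJL, a relative of RBPJ at 1.24 and 0.193 CPM, by 2.63 ± 0.65 (adjusted p = 0.0138). Fitted on only the groups compared, the calls of NEURL1B and CREBBP were lost (adjusted p = 0.123 and 0.181). The CREBBP call was also lost without set 2 replicate 2 (0.23, adjusted p = 0.0566), and the RBPJL call without set 2 replicate 2 (2.18, 0.0605) or set 4 replicate 3 (2.50, 0.0547).

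Summed levels of the neural and epithelial marker lists differed from NC in all 4 sets, but not those of every list. The embryonic kidney sum lay between 214 and 218 CPM in NC, 211 and 216 CPM in shSHCBP1_1 and 229 and 234 CPM in shSHCBP1_2. It lay between 177 and 201 CPM in shTMEM45A set 4 and 166 and 176 CPM in set 2. The fibroblast sum of shSHCBP1_1, between 47.7 and 54.9 CPM, overlapped that of NC, between 47.6 and 50.5 CPM. Levels were summed over a 14-gene neural progenitor and neuron list, of which 10 genes were tested. The sum lay between 535 and 544 CPM in NC, 484 and 515 CPM in shSHCBP1_1, 441 and 460 CPM in shSHCBP1_2, 251 and 277 CPM in shTMEM45A set 4 and 231 and 234 CPM in set 2. It was lower than in NC in all 4 sets, and lower in set 2 than in set 4. NEFM and NEFL hold most of that sum. NES went the other way, from 17.8 CPM in NC to 33.6 and 34.7 CPM in shTMEM45A sets 4 and 2, and SOX3 from 1.78 CPM to 3.07 and 3.53 CPM. INA was at 42.7 CPM in NC, 59.3 and 58.5 CPM in the shSHCBP1 sets and 39.1 and 50.7 CPM in shTMEM45A sets 4 and 2. The neural genes SOX1, DCX, ELAVL3 and ELAVL4 did not pass the filter on low counts. The summed level of a 10-gene epithelial list, of which 6 genes were tested, was taken in the same way. It lay between 143 and 144 CPM in NC, 153 and 166 CPM in the shSHCBP1 libraries and 305 and 353 CPM in those of shTMEM45A. KRT8 and KRT18 hold nearly all of this sum, and CDH1, the gene of E-cadherin, went the other way, from 12 CPM in NC to 7.91 and 7.16 CPM in shTMEM45A. Their part in the levels of the Notch genes was not tested.

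The genes whose level across the 15 libraries was most like that of HES5 were ranked by Pearson's r of log2 CPM. The ranking held 10666 genes with a mean log2 CPM of at least 2, after clone-type, LINC and pseudogene-like names were left out. That filter on names also dropped coding genes whose symbol ends in P or in P and digits, such as SHCBP1. The highest of those ranked were ZNF197 (r = 0.962), DBF4 (0.96), ZNF267 (0.959), TRAM2 (0.957) and MDM2 (0.956), and 171 of the ranked genes had an r over 0.9. Over the 9 libraries of the first table alone these 5 had r of 0.967, 0.95, 0.938, 0.904 and 0.976. The points share their 5 groups, their tables and their scaling, so these values describe a shared order of groups. ZNF197 and ZNF267 encode zinc finger proteins, DBF4 the activator of the replication kinase CDC7, TRAM2 a protein of the translocon and MDM2 the ubiquitin ligase of p53. ZNF197 was at 4.38 ± 0.90 CPM (SD, n = 3) in NC, 7.69 ± 0.56 in shSHCBP1_1, 8.52 ± 1.26 in shSHCBP1_2, 12.5 ± 0.93 in shTMEM45A set 4 and 12.6 ± 3.53 in set 2, and MDM2 was at 29.0 ± 3.35, 36.2 ± 1.15, 37.7 ± 1.13, 47.5 ± 3.00 and 47.3 ± 2.83 CPM.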

How the data were processed

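RNA from 15 libraries was measured by paired-end RNA-seq after oligo-dT selection, with a kit that does not mark strand, per the labels' protocols. The authors deposited 2 tables of raw counts per gene with gene names, of 58735 rows each. No aligner or counting tool is named in the labels or files used, the submitters' processing notes name a mouse genome build although the gene names are human, and without strand a gene and an overlapping or antisense neighbour cannot be told apart. Names on more than 1 row and date-like names (1768 rows) were left out. Every column matched a labelled group, and for the shTMEM45A columns the digit was not tied to a labelled hairpin. The members and lists were chosen with earlier results of these data known. No 2 libraries of a group agreed within sampling noise.

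Genes were kept with edgeR's filter (minimum count 10, total 15), scaled by TMM and tested with edgeR 4.0.16 (quasi-likelihood, R 4.3.3) in 1 fit over all 15 libraries, with Benjamini-Hochberg adjustment over 19051 genes and a threshold of 0.05. SE was taken from the F statistic, as the log2 change over its root. CPM was computed here. Alternatives were median-ratio (RLE) and total-count scaling, DESeq2 1.42.0, no filter, a minimum of 50, only the groups compared, a replicate block and leaving out each library. Lengths came from a mouse annotation by symbol, with a running median over 1000 genes. Genes named besides the 10 members are, for each list and each target, at most 3 that rose and 3 that fell in both of its sets, at most 3 each way between sets, and the 5 most like HES5. The fit was tested on simulated data.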

Additional observations from a re-analysis of the deposited data

Results flagged for a closer look

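HES4 moved in opposite directions under the hairpins against the different targets. All 6 libraries labelled shSHCBP1 lay below the NC libraries and all 6 shTMEM45A libraries lay above them, and the difference between the targets' log2 changes was 0.88 ± 0.05 (SE; edgeR, adjusted p = 6.66e-16). The flag was given to members with such a separation that also passed this test. The separation and the p-value are therefore a description of a gene picked by them. In this comparison 79.3% of all genes were called. The HES4 difference kept its sign and its call in each leave-one-out fit and under each scaling run. The target cannot be told apart from the table here, and HES4 has no length in the mouse annotation to set it against the trend.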

How the results depend on the processing

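Of 302 recomputed counts of called members and other Notch genes, 289 stayed within 1.5 times. The exceptions were between hairpins of a target. Fitted on only the groups compared, shSHCBP1_2 against shSHCBP1_1 called 4 members and 14 other Notch genes in place of 1 and 1, and shTMEM45A set 2 against set 4 called 0 and 4 in place of 1 and 11. With 1 library left out the members called ranged from 0 to 1 and from 1 to 2, and the other Notch genes for shSHCBP1 from 0 to 1. With no filter, 2 members were called between the shTMEM45A sets. Over all genes, the fit on only the groups compared called 5708 in place of 3787 for shSHCBP1_1, 1674 in place of 159 between the shSHCBP1 sets, where DESeq2 called 377, and 129 in place of 1004 between the shTMEM45A sets. In the shTMEM45A against shSHCBP1 comparison, total-count scaling called 4622 higher and 10926 lower in place of 6697 and 8408. Directions turned relative to the length trend for HES1 between targets (-0.09), HES6 (-0.07 in set 4, -0.12 in set 2, -0.14 between targets), JAG2 (0.08, 0.06), RBPJ (0.34, 0.35), TLE3 in set 4 (0.07), ID3 (-0.41, -0.71), CREBBP (0.23) and ID2 (-0.23) in set 2, and with total-count scaling for HDAC2 (-0.054), ID2 (-0.057) and ID3 (-0.052); the cause was not tested. Replicate numbers did not pair the libraries: same-numbered libraries had correlations of deviations between -0.035 and 0.038. With the replicate block, fitted where columns carry a labelled number, members called were 5, 8 and 10 for shSHCBP1_1, shSHCBP1_2 and shTMEM45A set 2 against NC, and 1 between the shSHCBP1 sets. Few counts limit HES5, ATOH1, MFNG and RBPJL.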

Other observations

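Some listed genes had too few counts for the test, and the 2 given here were chosen after their values were seen. NEUROG1, a proneural gene, had 1 count over the NC libraries and 11, 9, 26 and 11 over those of shSHCBP1_1, shSHCBP1_2, shTMEM45A set 4 and set 2. The ratios to NC were 9.58, 8.25, 27.2 and 11.4, with exact 95% intervals for counting error only of 1.39 to 412, 1.14 to 362, 4.46 to 1110 and 1.65 to 490. HES3, a repressor gene of the HES family, had 3 counts in NC, 0 and 1 in the shSHCBP1 sets and 11 and 20 in shTMEM45A sets 4 and 2. The HES3 ratios in the shTMEM45A sets were 3.83 and 6.90, with intervals of 1.01 to 21.4 and 2.05 to 36.2.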
